A study of Mus musculus with 4 samples.

Results

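The tumor suppressor gene Trp53 and 9 genes that p53 is known to activate directly were followed in murine 4T1 cells with and without an iron chelator. The 10 genes were Trp53, Mdm2, Bax, Ccng1, Phlda3, Zmat3, Sesn1, Aen, Trp53inp1 and Eda2r. They were looked up by symbol, from a set named with earlier results of these data known, and all 10 were found once among the 49585 genes of the deposited expression table. FPKM is the number of sequenced fragments on a gene scaled to its length and to the size of the library, so it allows levels to be compared between genes. In at least 1 library, 9 of the 10 reached an FPKM of 1, as did 12669 genes in all, called the expressed genes below. Eda2r did not reach this level, and its values are given separately.

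p53 is a transcription factor that accumulates when DNA is damaged or cells are stressed, and it then raises genes for cell cycle arrest, repair and cell death. Mdm2, an E3 ubiquitin ligase, is both a target of p53 and the protein that marks p53 for degradation, which closes a feedback loop. Much of the control of p53 acts on the stability of the protein, so an RNA level does not give the amount or the activity of p53. The 4T1 line, a mouse model of triple–negative breast cancer (TNBC), is commonly described as carrying a disrupted Trp53 gene. Neither the p53 protein nor the Trp53 sequence was examined here.

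All 4 libraries came from in vitro cultures of 2 clones, each grown from a single 4T1 cell. 4T1-HM has a high metastatic capacity and 4T1-LM a low one. Cells of each clone received 50 µmol/L of deferasirox (DFX), an oral iron chelator, or its solvent DMSO for 48 h, which gave HM_DFX, HM_Ctrl, LM_DFX and LM_Ctrl. The comparison of DFX with DMSO addresses how each clone responds to this dose of DFX, and the comparison of HM with LM addresses how the clones differ. There was 1 library for each condition and each line is 1 clone, so the differences below were not checked in replicates and carry no p-value. The intervals in the text are 95% intervals of the fragment counts and leave out any variation between cultures. They are exact, except those of a difference between the responses of the clones, which use a normal approximation.

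The libraries held between 14363065 fragments (HM_DFX) and 21883854 fragments (LM_DFX), as solved from the FPKM. Mitochondrial genes took between 1.16% (LM_DFX) and 1.89% (HM_Ctrl) of them and were lower in the DFX library of each clone. Carcinoma markers were present in every library, led by the keratins Krt8 and Krt18. The summed level of the 6 carcinoma markers was 1489 FPKM in HM_Ctrl and 445 in HM_DFX, against 2077 in LM_Ctrl and 932 in LM_DFX. All 6 were lower with DFX in both clones, as were 7083 of the 12669 expressed genes in HM and 6662 in LM. The 5 leukocyte markers summed to at most 0.0139 FPKM and the 3 endothelial markers to at most 0.188 FPKM. The 5 fibroblast markers summed to between 2.77 and 5.50 FPKM, nearly all of it from Pdgfra, while Pdgfrb, Lum and Thy1 were listed at 0. The part of the fall of the carcinoma markers in the results below was not tested.

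p53 binds DNA as a tetramer at pairs of a 10-base half-site. The p53 decamer half-site was searched in promoter windows of RefSeq (GRCm38.p6), which run from 250 bases before to 50 bases after a start of transcription. Because the pattern of the half-site is its own reverse complement, 1 search covered both strands. Of the 10 genes, 8 were in the table, and Zmat3 and Trp53inp1 were not. At least 1 half-site was found for 6 of these 8 genes, namely Trp53, Mdm2, Bax, Ccng1, Sesn1 and Aen, compared with 9.55% of the 27025 genes in the table. The share was not as high in the other p53 lists described below. It was 16.7% among other p53 target genes (8 of 48) and 18.2% among genes acting on p53 (4 of 22). Among cell cycle genes lowered through p53 it was 16.7% (2 of 12). Windows of Phlda3 and Eda2r held no match. A pair of half-sites at most 13 bases apart was found for 20 genes of the whole table and for none of the 8. The stretches below are from 2 genes that rose with DFX (Mdm2, Trp53), from 2 that did not rise (Ccng1, Bax) and from Cdkn1a, the best known target of p53. The Cdkn1a window at chr17:29090729-29091028 held a pair with 12 bases between. Its window at chr17:29093519-29093818 held no half-site. Capitals mark the half-sites, and every stretch is written 5′ to 3′ on the strand of its gene and lies outside the exons of GENCODE M21. The half-sites began 186 bases before the start in Mdm2, 75 in Trp53, 185 in Ccng1, 201 in Bax and 73 for the first of the pair in Cdkn1a.
Mdm2 (chr10:117710910-117710969, minus strand): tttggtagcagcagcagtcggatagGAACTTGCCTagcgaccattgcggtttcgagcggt
Trp53 (chr11:69580259-69580318, plus strand): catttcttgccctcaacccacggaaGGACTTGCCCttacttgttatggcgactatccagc
Ccng1 (chr11:40755437-40755496, minus strand): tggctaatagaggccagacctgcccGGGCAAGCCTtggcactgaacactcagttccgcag
Bax (chr7:45467065-45467124, minus strand): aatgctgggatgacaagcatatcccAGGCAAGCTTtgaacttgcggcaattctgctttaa
Cdkn1a (chr17:29090891-29090952, plus strand): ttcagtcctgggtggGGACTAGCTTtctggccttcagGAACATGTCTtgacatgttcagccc
A match of letters is a description of these windows, and genes with a half-site were found both among those that rose and among those that did not.

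DFX changed the 10 genes unevenly, and 3 of them rose in both clones. Trp53, Mdm2 and Trp53inp1 were higher by 2-fold or more on the scale of FPKM + 1 in HM_DFX than in HM_Ctrl, and the same 3 genes passed this threshold in LM_DFX against LM_Ctrl. Here "rose" and "fell" are used only for changes past this threshold, which is 1 on the log2 scale of FPKM + 1. None of the 9 expressed genes fell in either clone. Among all expressed genes, 6.93% rose and 12.4% fell in HM, and 7.09% rose and 8.72% fell in LM. After median-ratio scaling of the libraries, the split in HM was 1118 genes higher and 1276 lower, in place of 878 and 1568, while the same 3 of the 10 genes rose. The share of expressed genes that rose in both clones was 3.46% (438 genes). Over the 9 expressed genes of the 10 the median log2 change was 0.04 in HM and 0.15 in LM. The medians over all expressed genes were −0.10 and −0.04. With Eda2r included, the medians of the 10 genes were 0.04 in HM and 0.22 in LM.

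**Figure D1:**
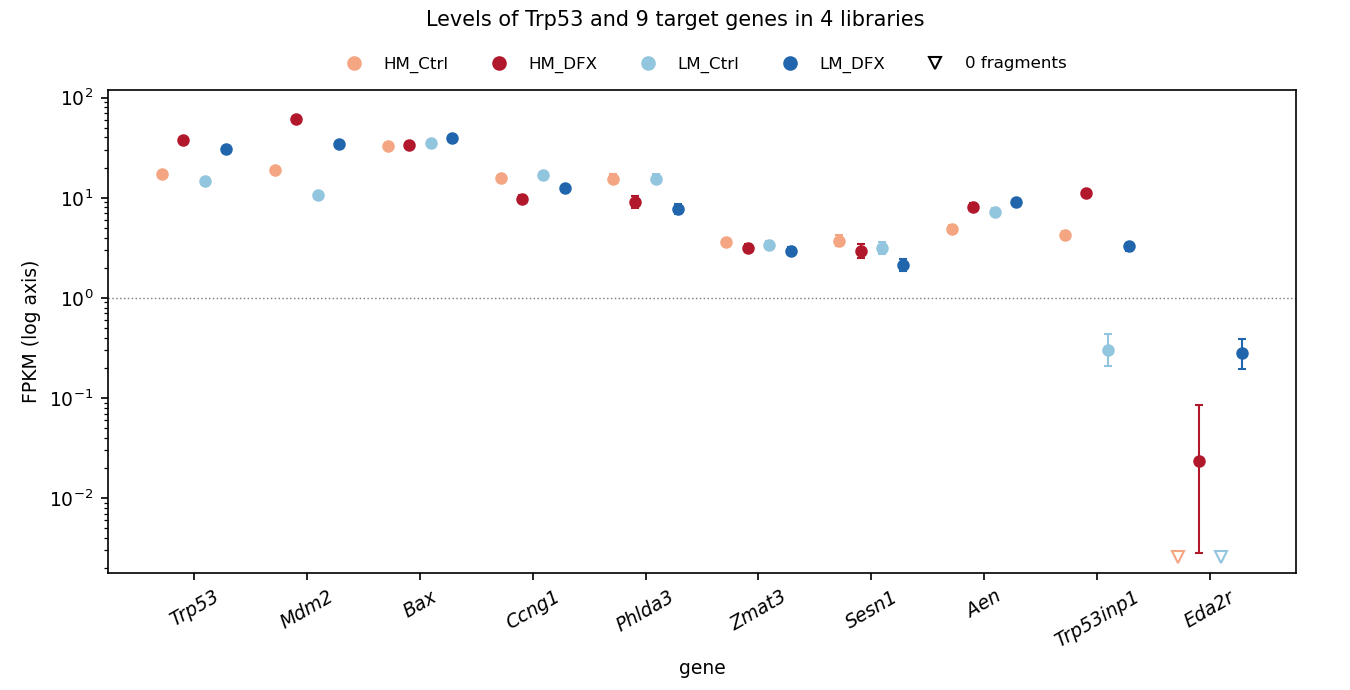
FPKM of the 10 genes (log axis) in HM_Ctrl, HM_DFX, LM_Ctrl and LM_DFX, with bars for the exact 95% interval of the fragment count and open triangles for 0 fragments. The dotted line marks an FPKM of 1. In Trp53, Mdm2 and Trp53inp1 the DFX library of each clone lies above its control, Bax and Zmat3 stay nearly level, and Eda2r lies below the line in every library.

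Trp53 itself (ENSMUSG00000059552, chr11:69580359-69591873 in mm10, plus strand) was at 17.5 FPKM in HM_Ctrl and 38.1 in HM_DFX, against 14.7 in LM_Ctrl and 30.9 in LM_DFX. Both DFX libraries were above both controls, and within each treatment HM was above LM. The ratio of FPKM was 2.18 in HM (2.03 to 2.35) and 2.10 in LM (1.95 to 2.27), with log2 changes of FPKM + 1 of 1.08 and 1.02. Trp53 lay just inside the 2-fold threshold in both clones, and its rises ranked 737th and 865th of the 12669 genes. The levels rested on 933 to 2731 fragments. Of the 31-base words in its transcripts, 10.2% also occur in another gene. The gene that shares the most of them is the pseudogene Trp53-ps, which was listed at 0 in all 4 libraries. Wrap53, which lies head to head with Trp53 on the other strand with 103 bases between the starts, was at 9.96, 11.5, 9.71 and 11.4 FPKM in the same order, with log2 changes of 0.19 in HM and 0.21 in LM. Wrap53 did not pass the threshold in either clone, so the step at Trp53 had no counterpart of that size in its neighbor.

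Mdm2 (ENSMUSG00000020184, chr10:117688888-117710758, minus strand) showed the largest response of the 9 expressed genes in HM. It was at 19.1 FPKM in HM_Ctrl and 61.9 in HM_DFX, against 10.7 in LM_Ctrl and 34.5 in LM_DFX. The order of the 4 libraries was the same as for Trp53, with no overlap of neighboring intervals in either gene. Mdm2 rose 3.24 times in HM (3.06 to 3.43) and 3.21 times in LM (2.98 to 3.47), so the 2 clones differed in level but responded by nearly the same factor. These rises ranked 224th and 323rd among the expressed genes. In HM_DFX, Mdm2 exceeded 93.4% of the expressed genes, compared with 74.6% in HM_Ctrl. Mdm2 RNA also increased relative to Trp53 RNA. The ratio of their FPKM was 1.09 in HM_Ctrl (1.01 to 1.18) and 1.62 in HM_DFX (1.54 to 1.71), and it was 0.732 in LM_Ctrl (0.666 to 0.804) and 1.12 in LM_DFX (1.06 to 1.17).

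Trp53inp1 (ENSMUSG00000028211, chr4:11156431-11174379, plus strand), a stress-induced protein that promotes p53-dependent death and autophagy, differed most between the libraries. Its level was 4.27 FPKM in HM_Ctrl and 11.3 in HM_DFX, against 0.304 in LM_Ctrl and 3.26 in LM_DFX. LM_Ctrl stood far below the other libraries, with only 31 fragments against 462 in LM_DFX. The ratio of FPKM under DFX was 2.64 in HM (2.36 to 2.95) and 10.7 in LM (7.44 to 16.0). On the scale of FPKM + 1 the log2 changes were 1.22 and 1.71, because the pseudocount of 1 shrinks the change of a gene at 0.304 FPKM. After DFX, LM reached 3.26 FPKM, which was still below the 4.27 FPKM of HM without DFX.

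Eda2r (ENSMUSG00000034457, chrX:97333840-97377216, minus strand), a receptor of the tumor necrosis factor family, was close to silent. It had 0 fragments in HM_Ctrl and 2 in HM_DFX, against 0 in LM_Ctrl and 36 in LM_DFX, the last being 0.279 FPKM. A count of 0 allows up to 0.0304 FPKM in HM_Ctrl and 0.0324 in LM_Ctrl, taking 3 fragments as the limit. LM_DFX was 8.63 times the level that 3 fragments would give in LM_Ctrl, and the exact interval of the ratio to the 0 fragments of LM_Ctrl starts at 6.66. Both HM libraries were at or under 3 fragments, so no fold change between them is given. The ratio of LM_DFX to HM_DFX was 11.8, with a wide interval (3.04 to 101) because HM_DFX rests on 2 fragments.

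Bax and Aen, which also have roles in cell death, did not pass the threshold. Bax, a BCL-2 family protein that permeabilizes the outer mitochondrial membrane, was the most abundant of the 10 in HM_Ctrl, LM_Ctrl and LM_DFX. It stood at 32.7 FPKM in HM_Ctrl and 33.5 in HM_DFX, against 35.4 in LM_Ctrl and 39.4 in LM_DFX, and all neighboring intervals overlapped. Its ratio under DFX was 1.03 in HM (0.930 to 1.13) and 1.11 in LM (1.02 to 1.21). Aen, the apoptosis-enhancing nuclease, was at 4.86 FPKM in HM_Ctrl and 8.14 in HM_DFX, against 7.27 in LM_Ctrl and 9.09 in LM_DFX. HM_Ctrl was the low library, and the other 3 lay close together. The ratio for Aen was 1.67 in HM (1.49 to 1.89) and 1.25 in LM (1.14 to 1.38), which gives log2 changes of FPKM + 1 of 0.64 and 0.29.

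The targets that restrain growth signals lay lower with DFX, but none reached a 2-fold change of FPKM + 1. Phlda3, a pleckstrin homology domain protein that competes with Akt for membrane lipids, was at 15.6 FPKM in HM_Ctrl and 9.07 in HM_DFX, against 15.5 in LM_Ctrl and 7.71 in LM_DFX. The 2 controls were nearly equal, and both DFX libraries were below them. Its ratio was 0.583 in HM (0.490 to 0.692) and 0.498 in LM (0.424 to 0.584), so that in LM it lay just past 2-fold as a plain ratio and just short of it on the scale of FPKM + 1, at −0.92. Sesn1, a sestrin that holds back mTORC1, was at 3.72, 2.95, 3.14 and 2.13 FPKM in HM_Ctrl, HM_DFX, LM_Ctrl and LM_DFX. Only LM_DFX was apart from its neighbor in this order. The ratio for Sesn1 was 0.794 in HM (0.649 to 0.970) and 0.679 in LM (0.552 to 0.834).

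Ccng1, which encodes cyclin G1, a partner of protein phosphatase 2A that acts on Mdm2, was at 15.8 FPKM in HM_Ctrl and 9.75 in HM_DFX, against 16.7 in LM_Ctrl and 12.5 in LM_DFX. As for Phlda3, the controls overlapped and both DFX libraries were lower. The ratio for Ccng1 was 0.615 in HM (0.551 to 0.687) and 0.746 in LM (0.681 to 0.818). Zmat3, a zinc finger protein that binds RNA, was at 3.62 and 3.17 FPKM in HM and at 3.38 and 2.97 FPKM in LM, without and with DFX. Its highest library was 1.22 times its lowest, as close as in Bax (1.21). Its ratio was 0.874 in HM (0.778 to 0.980) and 0.878 in LM (0.788 to 0.979). The log2 change had the same sign in both clones in all 9 expressed genes, above 0 in 5 and below 0 in 4, as it had in 75.9% of the expressed genes. Only 3 of the 9 passed the threshold, and the interval of Bax in HM held a ratio of 1.

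**Figure D2:**
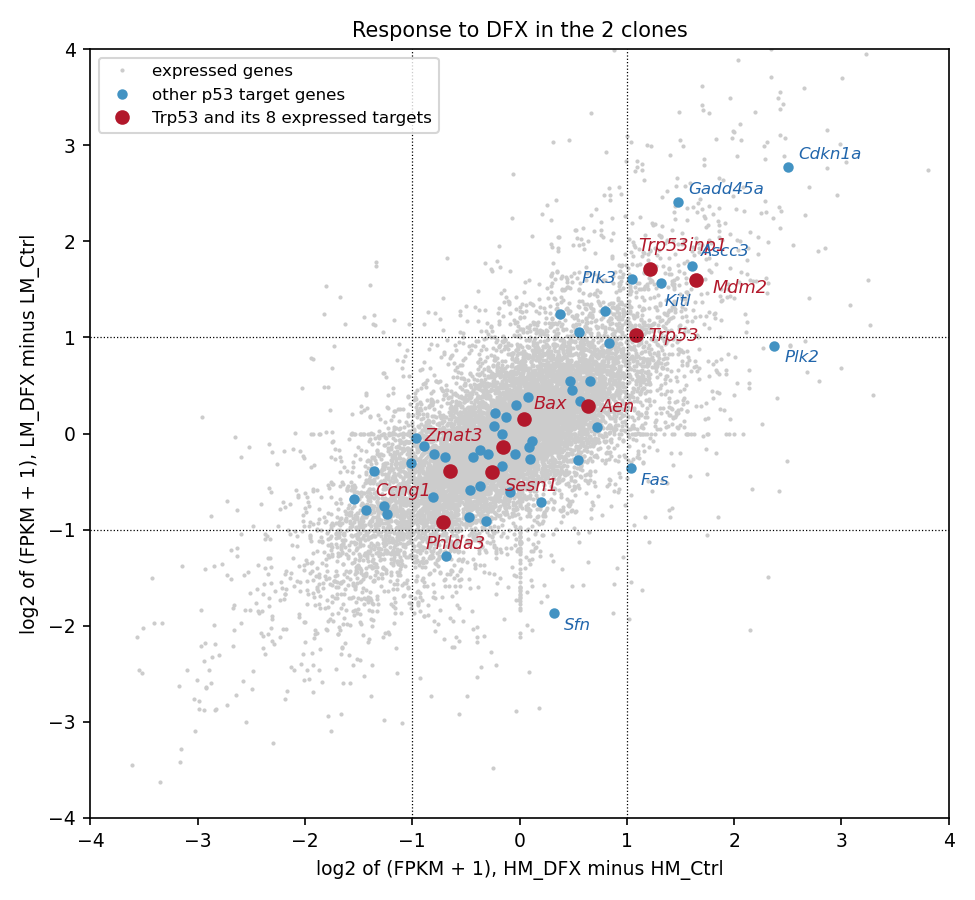
Log2 change of FPKM + 1 with DFX in HM (x axis) and in LM (y axis) for the expressed genes (gray), 50 other p53 target genes (blue) and the 9 expressed genes of the 10 (red), with dotted lines at 2-fold. The 29 genes beyond the axes are not drawn. Trp53, Mdm2 and Trp53inp1 lie in the upper right field together with Cdkn1a, Gadd45a, Plk3, Ascc3 and Kitl, while Phlda3, Ccng1, Sesn1 and Zmat3 lie to the lower left of the center inside the lines.

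Whether the response to DFX differed between the clones was described by the difference of the log2 changes, HM minus LM. None of the 9 expressed genes differed by 2-fold or more on the scale of FPKM + 1, where the signed difference passed 2-fold above 0 in 3.52% of the expressed genes and below 0 in 5.38%. The difference was 0.06 for Trp53 and 0.05 for Mdm2. On the plain ratio, its approximate counting interval ran from −0.09 to 0.20 for Trp53 and from −0.12 to 0.14 for Mdm2. For Trp53inp1 the answer depended on the pseudocount. The difference was −0.49 on the scale of FPKM + 1, and on the plain ratio of FPKM its interval ran from −2.57 to −1.47, past 2-fold on the side of a larger rise in LM. The interval on the plain ratio also lay apart from 0 for Aen, at 0.20 to 0.64, and for Ccng1, at −0.48 to −0.07.

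Between the clones without DFX, 1 of the 9 genes passed the threshold. Trp53inp1 was 14.0 times higher in HM_Ctrl than in LM_Ctrl (9.75 to 20.9), a log2 difference of FPKM + 1 of 2.01 that ranked 41st among the expressed genes. In this comparison 3.65% of the expressed genes passed 2-fold upward in HM and 3.15% downward. Mdm2 was 1.78 times higher in HM_Ctrl (1.64 to 1.94), and Trp53 was 1.19 times higher (1.09 to 1.30). Aen lay the other way, with a ratio of 0.669 (0.593 to 0.754). The intervals of Bax, Ccng1, Phlda3, Zmat3 and Sesn1 all held a ratio of 1, and Phlda3 was nearly identical in the 2 controls at 1.00 (0.871 to 1.16).

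With DFX in both clones, Trp53inp1 again was the gene past the threshold, at 3.46 times higher in HM_DFX than in LM_DFX (3.09 to 3.86). Among the expressed genes 3.31% were higher and 5.05% lower in HM_DFX. Mdm2 kept a ratio of 1.79 (1.72 to 1.87) and Trp53 one of 1.24 (1.17 to 1.31). The comparisons of the clones use the same 4 libraries as the comparisons with DFX and are not independent of them.

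**Figure D3:**
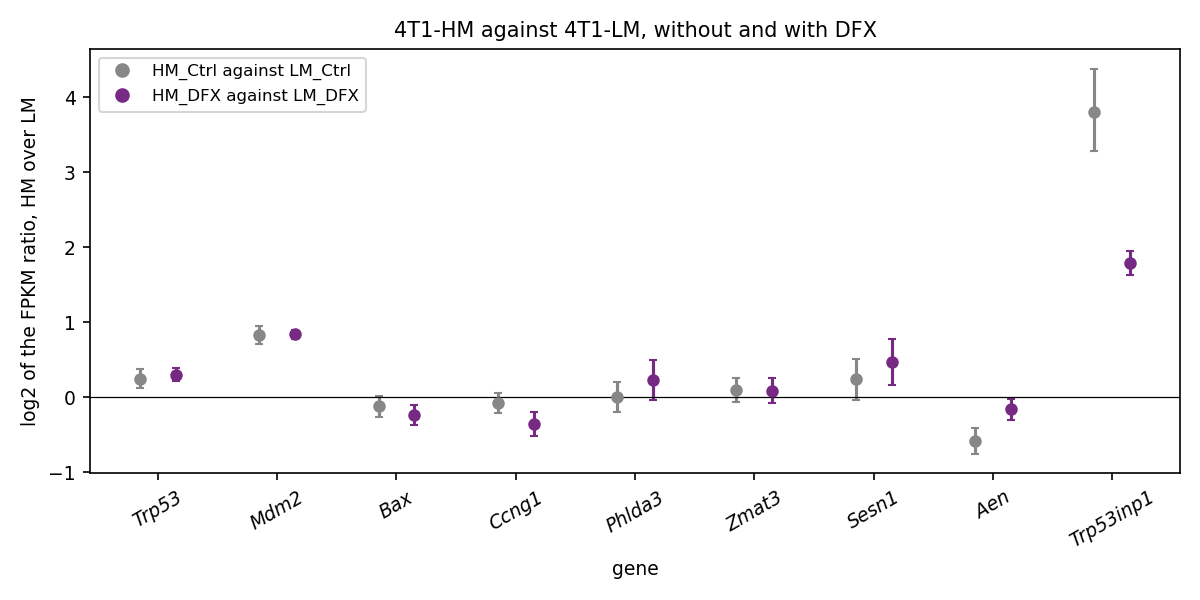
Log2 of the FPKM ratio of 4T1-HM over 4T1-LM for the 9 expressed genes, between the DMSO libraries (gray) and between the DFX libraries (purple), with bars for the exact 95% counting interval. Trp53inp1 stands apart in both comparisons, Mdm2 lies at nearly the same height in both, and the other genes lie within 1 of 0.

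To place the 10 genes in their pathway, 57 other genes known as p53 targets were counted by role, and 50 of them were expressed. In HM 7 of the 50 rose (14.0%, beside 6.93% of the expressed genes) and 6 fell (12.0%, beside 12.4%), with a median log2 change of −0.07. In LM 8 rose (16.0%, beside 7.09%) and 2 fell (4.00%, beside 8.72%), with a median of −0.15. Cdkn1a, Gadd45a, Plk3, Ascc3 and Kitl rose in both clones (5 of 50), and none fell in both. The medians over all expressed genes were −0.10 and −0.04.

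The arrest genes held the largest rises. Cdkn1a, which encodes the cyclin-dependent kinase inhibitor p21, was at 14.1 FPKM in HM_Ctrl and 84.5 in HM_DFX, against 8.09 in LM_Ctrl and 61.3 in LM_DFX. Both DFX libraries were far above both controls, and the ratio was 5.99 in HM (5.46 to 6.59) and 7.57 in LM (6.70 to 8.58). Gadd45a, a stress protein that restrains the cell cycle after DNA damage, rose from 50.4 to 142 FPKM in HM and from 23.4 to 129 FPKM in LM. It overlaps E230016M11Rik on the other strand, and whether the counting used strand is not given in the sources used here. Among the 8 expressed arrest genes, 4 rose and none fell in HM, and 3 rose and 1 fell in LM. These rises were 50.0% and 37.5% of the list, beside 6.93% and 7.09% of the expressed genes. The falls were 0% in HM, beside 12.4%, and 12.5% in LM, beside 8.72%.

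Other arrest genes set the clones apart. The stress-responsive kinase Plk2 rose in HM, from 26.2 to 140 FPKM, and went from 42.3 to 80.6 FPKM in LM, short of the threshold. The difference between these changes was 1.46 on the log2 scale of FPKM + 1. Plk3, a related kinase, was at 51.4, 107, 14.7 and 46.9 FPKM in HM_Ctrl, HM_DFX, LM_Ctrl and LM_DFX and rose in both clones. Sfn, the 14-3-3 sigma protein, was nearly restricted to LM, where it fell from 94.1 to 25.0 FPKM, and stood at 1.18 and 1.73 FPKM in HM. Of the 31-base words of Sfn, 26.8% also occur in another gene, so its values are uncertain.

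Of 11 expressed death genes, Fas rose in HM and Bbc3 rose in LM, and none fell. The share that rose, 9.09% in each clone, was near the 6.93% and 7.09% of all expressed genes. Over all expressed genes 12.4% fell in HM and 8.72% in LM. Fas, a death receptor at the cell surface, was at 1.92 FPKM in HM_Ctrl and 4.99 in HM_DFX, against 5.51 in LM_Ctrl and 4.06 in LM_DFX. HM_Ctrl was the library apart, on 58 fragments. Bbc3, which encodes the BH3-only protein PUMA, went from 12.3 to 22.1 FPKM in HM, short of the threshold, and reached 18.4 FPKM in LM_DFX, which was 2.62 times LM_Ctrl (2.26 to 3.04). Pmaip1 and Dram1 did not reach an FPKM of 1 in any library.

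Of the 8 repair genes, Ascc3 rose in both clones, Ddb2 rose in LM, and Polh fell in LM. The rises were 12.5% of the list in HM and 25.0% in LM, beside 6.93% and 7.09% of the expressed genes. The falls were 0% in HM, beside 12.4%, and 12.5% in LM, beside 8.72%. Ascc3, a helicase of alkylation repair, went from 8.51 to 28.0 FPKM in HM and from 5.79 to 21.7 FPKM in LM. Ddb2, which recognizes ultraviolet damage, went from 8.49 to 12.9 FPKM in HM and from 6.51 to 14.6 FPKM in LM. Ddb2 overlaps Acp2 on the other strand and shares 20.6% of its 31-base words with other genes, so its values are uncertain. The DNA polymerase gene Polh, which copies past such damage, was at 22.9 FPKM in LM_Ctrl and 8.84 in LM_DFX, with 13.1 and 7.78 FPKM in HM.

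Among 11 metabolic targets, Ddit4, Fdxr, Fuca1 and Pank1 fell in HM and none rose, while in LM Steap3 rose and none fell. The falls in HM were 36.4% of the list, beside 12.4% of the expressed genes, and the rise in LM was 9.09%, beside 7.09%. Over all expressed genes 6.93% rose in HM and 8.72% fell in LM. Fdxr, the reductase that feeds electrons into mitochondrial iron–sulfur cluster and steroid synthesis, fell from 6.28 to 2.03 FPKM in HM and stood at 5.21 and 2.69 FPKM in LM. Pank1, a kinase of coenzyme A synthesis, fell from 8.28 to 2.19 FPKM in HM and stood at 6.56 and 3.71 FPKM in LM. Fuca1, a lysosomal fucosidase, fell from 10.4 to 3.44 FPKM in HM, with 7.39 and 5.41 FPKM in LM. Steap3, a ferrireductase of endosomes that takes part in iron uptake, went from 6.46 to 16.6 FPKM in LM and from 14.1 to 18.7 FPKM in HM. The response of Fuca1 in HM minus that in LM was −0.97 on the log2 scale of FPKM + 1, just short of 2-fold, and those of Fdxr, Pank1 and Steap3 were −0.51, −0.86 and −0.86. On the plain ratio the difference was past 2-fold for Fuca1, at −1.14 (−1.47 to −0.82), and for Pank1, at −1.10 (−1.46 to −0.74). It was −0.67 for Fdxr and −0.96 for Steap3.

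Of 12 signaling targets, Kitl, the ligand of the receptor Kit, rose in both clones, from 10.0 to 26.4 FPKM in HM and from 3.56 to 12.5 FPKM in LM. Tgfa, a ligand of the epidermal growth factor receptor, fell in HM from 12.4 to 3.98 FPKM, and went from 13.4 to 7.30 FPKM in LM. Tsku, a secreted leucine-rich repeat protein, fell in HM from 6.66 to 2.26 FPKM, with 6.23 and 3.04 FPKM in LM. The share of this list that rose, 8.33% in each clone, was near the 6.93% and 7.09% of the expressed genes. The falls were 16.7% in HM, beside 12.4%, and 0% in LM, beside 8.72%.

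**Figure D4:**
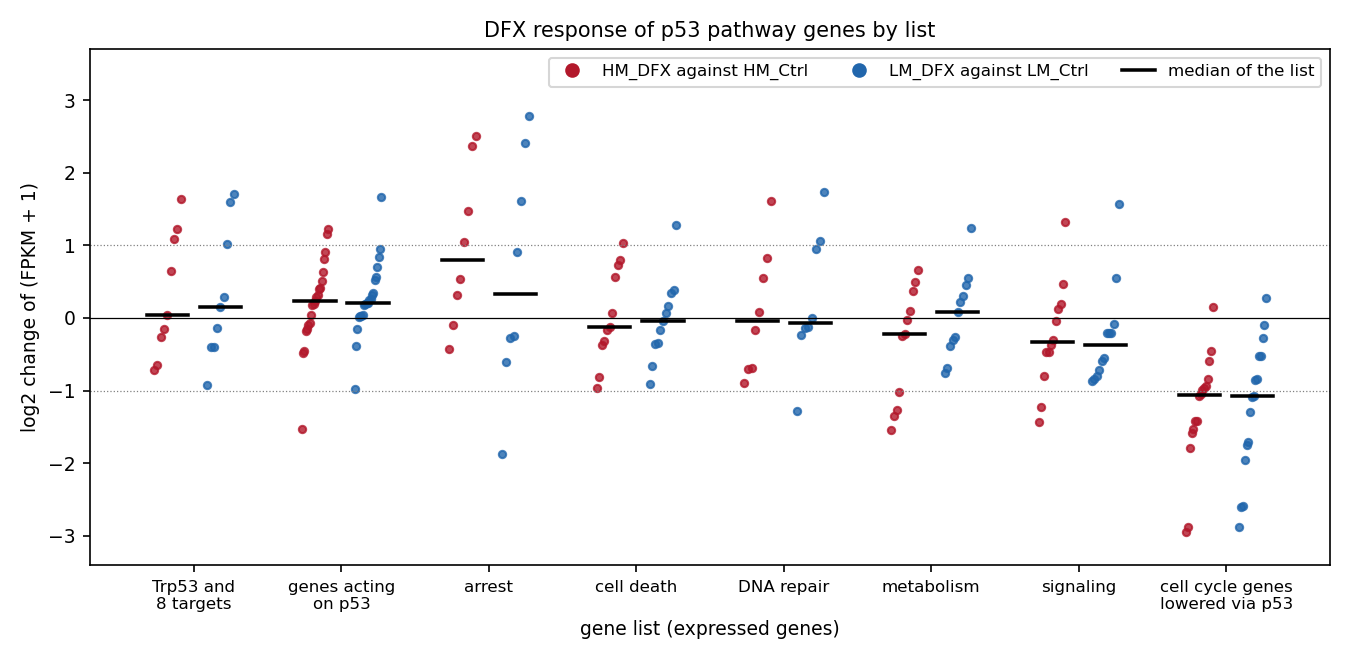
Log2 change of FPKM + 1 with DFX for the expressed genes of each list, in HM (red) and LM (blue), with black bars for the medians and dotted lines at 2-fold. The cell cycle genes lie lowest, with medians of −1.07 and −1.08, and the 9 expressed genes of the 10 spread to both sides of 0.

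Of 24 listed genes that act on p53, 21 were expressed. In HM 2 of them rose (9.52%) and in LM 1 rose (4.76%), near the 6.93% and 7.09% of all expressed genes. In HM 1 fell (4.76%, beside 12.4% of all expressed genes), and in LM none fell (beside 8.72%). Their median log2 changes were 0.24 in HM and 0.21 in LM, beside −0.10 and −0.04 over all expressed genes. Daxx, a chaperone of histones that binds Mdm2, rose in both clones, from 10.5 to 26.0 FPKM in HM and from 12.5 to 41.9 FPKM in LM. Sirt1, a deacetylase of p53, rose in HM, from 8.09 to 19.2 FPKM, and was at 6.19 and 9.58 FPKM in LM. Chek2, a kinase that phosphorylates p53 after DNA breaks, fell in HM, from 7.50 to 1.95 FPKM, and in LM its log2 change of FPKM + 1 was −0.98, just outside the threshold. Mdm4, the partner of Mdm2 that also restrains p53, was at 5.70 FPKM in HM_Ctrl and 8.54 in HM_DFX, against 7.03 in LM_Ctrl and 7.28 in LM_DFX. The p53 relatives Trp63 and Trp73 stayed under an FPKM of 1, and Cdkn2a, which encodes the Mdm2 inhibitor p19Arf, had 0 fragments in all 4 libraries, which allows at most 0.178 FPKM in any of them.

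Genes for mitosis that are known to be lowered when p53 and p21 are active were lower with DFX on balance. Of 16 such genes, 9 fell and none rose in HM, with a median log2 change of −1.07, and 9 fell and none rose in LM, with a median of −1.08. Over all expressed genes 12.4% fell and 6.93% rose in HM, and 8.72% fell and 7.09% rose in LM. In each clone 15 of the 16 had a log2 change below 0, as had 7083 of the 12669 expressed genes in HM and 6662 in LM. Plk1, the main mitotic polo-like kinase, fell from 56.0 to 6.40 FPKM in HM and from 78.1 to 9.75 FPKM in LM. Ccnb2, a B-type cyclin, fell from 72.3 to 8.96 FPKM in HM and from 102 to 16.1 FPKM in LM. Ccnb1 fell from 33.7 to 9.03 FPKM and from 36.4 to 8.67 FPKM, and Cdc20, which activates the anaphase-promoting complex, from 108 to 35.2 FPKM and from 123 to 19.4 FPKM. More than 20% of the 31-base words of Ccnb1 and Cdc20 (27.8% and 26.7%) also occur in other genes, and their values are uncertain. In bulk RNA, fewer cells in mitosis and less of these RNAs per cell cannot be told apart.

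The genes whose pattern over the 4 libraries came nearest to that of Trp53 were Alg12, Med10 and Ddx50. They were found among 10766 other expressed protein-coding genes, by the Euclidean distance of log2 of FPKM + 1 after centering each gene on its mean, and the distances were 0.0502, 0.0631 and 0.0677. Alg12 went from 3.60 to 8.87 FPKM in HM and from 3.05 to 7.27 FPKM in LM. Of the 31-base words of Med10, 90.3% occur in another gene, so its place is uncertain. For Mdm2 the nearest were Stx3, Tcp11l2 and Zfp655, at distances of 0.0929, 0.156 and 0.186. Stx3 had log2 changes of 1.60 in HM and 1.72 in LM, and was 0.84 higher in HM_Ctrl than in LM_Ctrl, where Mdm2 was 0.78 higher. With 4 libraries, likeness of pattern is only a description.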

How the data were processed

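RNA was measured in 4 libraries of 4T1 clones. The authors selected poly(A) RNA, made directional libraries (ribosomal RNA depletion is also mentioned), trimmed paired-end reads with Trimmomatic, checked them with FastQC and aligned them to mm10 with HISAT2. The submitters' processing notes also name featureCounts. Versions, the annotation release and the use of strand are not given in the sources used here. The authors deposited FPKM for 49585 genes. The paper's edgeR calls were not repeated, since 1 library per condition gives no spread.

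Fragments were recovered from FPKM and exon lengths of GENCODE M21, whose coordinates equal those of 45128 genes, or lengths solved from the values. They were whole in all libraries, within 0.02, for 99.5% of expressed genes, and summed to 99.4% of each total. They were used for depth, fragment counts, plain ratios between libraries and 95% intervals. The intervals were exact conditional binomial for ratios and a normal approximation for differences of log2 ratios. Fold changes were log2 ratios of FPKM + 1 among genes that reached an FPKM of 1 in any library, called at 2-fold. The median of a list is over its expressed genes unless stated. Named genes were the 10 members in all libraries, from each other list up to 3 rises and 3 falls past 2-fold in each DFX comparison, Cdkn1a, Wrap53, Mdm4 and Cdkn2a, and the 3 genes nearest to Trp53 and Mdm2. Ddit4, Dram1, Pmaip1, Trp63 and Trp73 are outside this rule and were named after their values were seen. Members and lists were chosen with earlier results of these data known. Lists came from general knowledge, and the symbol Cop1 was matched to Rfwd2. Genes sharing over 20% of 31-base words with other genes were treated as uncertain. Alternatives were a pseudocount of 0.1, other filters, scalings and thresholds, plain ratios, and the 9 targets without Trp53. Scripts (Python 3.11.15, pandas 2.3.3, scipy 1.17.1) were tested on simulated data.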

Additional observations from a re-analysis of the deposited data

Results flagged for a closer look

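Fas changed in opposite directions in the clones, with both changes beyond counting error. Its log2 change of FPKM + 1 with DFX was 1.03 in HM (HM_DFX against HM_Ctrl) and −0.36 in LM (LM_DFX against LM_Ctrl). This difference was not tested, because there is 1 library per condition. Sfn also had opposite signs, at 0.32 in HM and −1.87 in LM. Its difference between the clones was larger, at 2.19 beside 1.40 for Fas. The counting interval of Sfn in HM held a ratio of 1 (0.893 to 2.40), so it was not flagged.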

How the results depend on the processing

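The counts of the 10 genes past the threshold were 3 in HM and 3 in LM with DFX, 1 in each comparison of the clones and 0 in the difference of the responses. No filter, a filter on mean FPKM, median-ratio scaling and scaling to the 75th percentile changed none of these counts. A filter leaves each log2 change as it is and only sets which genes are counted, so these filters were a weak check. With a pseudocount of 0.1, or with plain ratios of recovered fragments, 1 gene (Trp53inp1) passed in the difference of the responses, at −1.68 with that pseudocount. In this difference 744 of the 12669 expressed genes were higher and 1325 lower with that pseudocount, and 674 and 1456 with plain ratios. Plain ratios also added Phlda3 in LM (4 genes), where 1445 expressed genes were then higher and 1836 lower. At a 1.5-fold threshold the count was 6 in HM (4 higher, 2 lower), 4 in LM, 2 between the clones without DFX and 2 with DFX, where Mdm2 joined Trp53inp1, while 2031 expressed genes were then higher and 3297 lower in HM and 2088 and 2528 in LM. At a 4-fold threshold it was 0 in HM, 0 in LM and 0 between the clones with DFX, while Trp53inp1 still passed without DFX. Few of the 12669 expressed genes passed 4-fold, with 111 higher and 166 lower in HM and 180 and 134 in LM. Between the clones, 42 were higher and 55 lower in HM_Ctrl, and 36 and 59 in HM_DFX. At 1.5-fold, 1329 were higher and 1102 lower in HM_Ctrl, and 1260 and 1848 in HM_DFX. Among all expressed genes, a pseudocount of 0.1 raised the genes lower in HM_DFX from 1568 to 2397, those higher in LM_DFX from 898 to 1349, and those higher in HM_Ctrl than in LM_Ctrl from 462 to 883. Of 104 values of single genes, the pseudocount changed 3 calls (Trp53inp1, and Chek2 and Tsku in LM), the 1.5-fold threshold 14, and the filters and scalings 0. Median-ratio scaling moved the median of the expressed genes in HM from −0.10 to 0.00. Values on few fragments, such as Eda2r, Trp53inp1 in LM_Ctrl and Fas in HM_Ctrl, have the widest counting error. With 1 library per condition, variation between cultures is unknown. A fit that takes the clones as pairs was not made. No result comes from a test, and each condition has a single replicate number.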
